A study of Mus musculus with 12 samples.

Results

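The 9 genes described here act in the supply of cysteine and in the making and breaking of glutathione. They were chosen by pathway, with earlier results of these data known, from the 55536 genes of the count table and found by their Ensembl identifiers. *Cth*, *Cbs* and *Slc7a11* supply cysteine, *Gclc*, *Gclm* and *Gss* make glutathione, and *Chac1*, *Chac2* and *Ggct* act in its breakdown, the ChaC enzymes on glutathione itself and Ggct on γ-glutamyl amino acids.

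Cysteine is the limiting building block of glutathione, the tripeptide of glutamate, cysteine and glycine that is the main soluble thiol of the cell. Cells import cysteine as its oxidized dimer cystine, or build it from methionine through homocysteine and cystathionine in the transsulfuration pathway. Glutathione is degraded outside the cell by γ-glutamyltransferases and in the cytosol by the ChaC enzymes, and several of these genes, *Cth*, *Slc7a11* and *Chac1* among them, are known targets of the transcription factor ATF4 of the integrated stress response.

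RNA-seq was performed on primary B cells from the spleens of 3 control mice, with a Cre allele and intact *Pdap1*, and 3 mice lacking Pdap1, with the same Cre allele and floxed *Pdap1* (Pdap1F/F), all on the C57BL/6 background and of ages that the labels do not give. The Cre of all 6 mice is active in the B lineage only, and in the deficient mice it removed the second exon of the floxed *Pdap1* gene. Splenic B cells, enriched by depletion of CD43+ cells, were cultured for 48 h with 5 µg/ml LPS, a Toll-like receptor ligand that activates B cells, and either IL-4 at 5 ng/ml or BAFF at 10 ng/ml plus TGFβ at 2 ng/ml, which direct class switching to IgG1 and to IgG2b. Each mouse gave 1 culture of each kind, which makes 12 libraries in 4 groups of 3. The medium held 2-mercaptoethanol, which itself eases the uptake of cystine. The labels also name the line CH12 for every sample, which goes against the mouse cultures of the study's methods and of the series description. These were followed here.

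The LPS-IL-4 libraries held 9386667 to 15869143 counts. The LPS-BAFF-TGFβ libraries held 4579793 to 8303482, apart from that of control mouse 1, with 69500640. In that library *CT010467.1* alone took 3.38% of the counts, and *Lars2* took 9.90% in the LPS-BAFF-TGFβ library of deficient mouse 1. The top gene of every other library took 0.91% to 1.96%. The effect of this on the levels was not tested. *Pdap1* stood at 93.0, 91.4 and 97.8 CPM (counts scaled to library size, with TMM factors over the 12 libraries) in the controls with LPS-IL-4 and at 23.3, 27.2 and 29.9 in the deficient mice. With LPS-BAFF-TGFβ it stood at 199, 80.3 and 100.3 in the controls and at 26.4, 26.0 and 23.0 in the deficient mice, so the genotypes did not overlap under either stimulation. The counts cover the whole gene, the exons left in place included. All 7 B cell markers looked at were detected, with a summed level of 2227 to 3348 CPM, against 9.34 to 35.8 for 7 T cell markers and 0.81 to 4.38 for 6 NK cell markers. Summed myeloid markers stood apart in both cultures of deficient mouse 2, at 317 and 549.8 CPM, and are given beside the genes that they touch.

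The promoters of *Chac1*, *Slc7a11* and *Chac2* are shown because *Chac1* had the smallest p-values of the 9 genes between the genotypes, *Slc7a11* varied the most between mice, and *Chac2* is the paralog of *Chac1* that did not pass the test. Each is the 250 bases before the gene's start in RefSeq on GRCm38.p6, at chr2:119350992-119351241 on the plus strand for *Chac1*, chr3:50443614-50443863 on the minus strand for *Slc7a11* and chr11:30986366-30986615 on the minus strand for *Chac2*. Capitals mark TGANGCAA and its reverse complement TTGCNTCA, which cover TGATGCAA, the form bound by ATF4 with C/EBP proteins.
Chac1: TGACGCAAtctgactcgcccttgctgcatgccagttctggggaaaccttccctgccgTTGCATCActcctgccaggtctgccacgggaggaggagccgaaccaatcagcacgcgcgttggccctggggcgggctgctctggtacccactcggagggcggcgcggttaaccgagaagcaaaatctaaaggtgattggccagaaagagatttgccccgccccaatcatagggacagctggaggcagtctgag
Slc7a11: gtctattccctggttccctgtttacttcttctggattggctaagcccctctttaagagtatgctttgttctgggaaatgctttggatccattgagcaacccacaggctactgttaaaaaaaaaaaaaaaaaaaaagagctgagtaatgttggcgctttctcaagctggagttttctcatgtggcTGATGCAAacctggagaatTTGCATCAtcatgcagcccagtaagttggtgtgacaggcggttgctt
Chac2: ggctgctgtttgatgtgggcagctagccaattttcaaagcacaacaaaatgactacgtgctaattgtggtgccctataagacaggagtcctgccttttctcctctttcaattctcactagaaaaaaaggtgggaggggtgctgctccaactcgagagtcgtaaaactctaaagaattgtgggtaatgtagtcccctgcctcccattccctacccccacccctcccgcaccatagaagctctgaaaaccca

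Both the *Chac1* and the *Slc7a11* window held 2 copies. In *Slc7a11* they lay 66 to 59 bases before the start, as TGATGCAA, and 47 to 40 bases before it on the other strand. In *Chac1* they lay 250 to 243 bases before the start, as TGACGCAA, and 193 to 186 bases before it on the other strand. The windows of *Cbs*, *Gclm*, *Gss*, *Chac2* and *Ggct* held none. Of 32851 promoter windows of this length, 1025 (3.12%) held TGANGCAA on either strand and 35 (0.107%) held 2 or more copies, while 260 (0.791%) held TGATGCAA. The motifs were chosen with the values of the genes known, and a match is only a match of letters. RefSeq windows matched 7 of the 9 genes, all but *Cth* and *Gclc*.

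The 9 genes covered a wide range of levels, set beside each other here after division by the exonic length of the gene. This length holds all annotated exons, used in these cells or not, such as 7745 bases for *Ggct* and 1315 for *Chac2*. The order below depends on it. In CPM, *Ggct* at 17.9 ± 2.73 (SD, n = 3 mice) stood above *Chac2* at 8.77 ± 0.51 in the controls with LPS-IL-4. In control cultures with LPS-IL-4, *Gclc* was the most abundant at 23.9 ± 0.55 CPM per kb (SD, n = 3 mice, as for all group means below), followed by *Gclm* at 8.08 ± 0.44 and *Chac2* at 6.67 ± 0.39. *Cth* stood at 4.0 ± 0.58, above *Ggct* at 2.32 ± 0.35, *Chac1* at 2.30 ± 0.29 and *Gss* at 1.99 ± 0.23, which overlapped from each to the next. *Slc7a11*, at 0.43 ± 0.34, and *Cbs*, at 0.30 ± 0.08, came last and overlapped too.

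In deficient cultures with LPS-IL-4, *Gclc* at 29.8 ± 4.07 CPM per kb was followed by *Cth* at 26.3 ± 11.2 and *Chac1* at 21.1 ± 1.74, each overlapping its neighbour. *Gclm*, *Slc7a11* and *Chac2* came next, at 12.7 ± 0.76, 9.71 ± 9.99 and 7.46 ± 0.45, again with overlap between neighbours, and *Ggct*, *Gss* and *Cbs* came last. With LPS-BAFF-TGFβ, *Chac1* and *Cth* stood at 0.66 ± 0.13 and 0.95 ± 0.08 CPM per kb in the controls, below *Gclc*, *Chac2*, *Gclm*, *Ggct* and *Gss*. In the deficient cultures they stood at 17.9 ± 1.31 and 15.9 ± 4.83, next to *Gclc* at 18.8 ± 2.89, and all neighbours in that order overlapped save *Cbs*, the lowest at 0.23 ± 0.02. By group mean, *Cth* and *Chac1* stood among the 3 highest genes in the deficient cultures of either kind, and below *Gclc*, *Gclm* and *Chac2* in both kinds of control culture. The order differed in deficient mouse 2, where *Slc7a11* stood at 21.1 and 22.5 CPM per kb with LPS-IL-4 and LPS-BAFF-TGFβ and *Cth* at 14.1 and 10.5, the latter also below *Gclm* at 11.9.

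**Figure D1:**
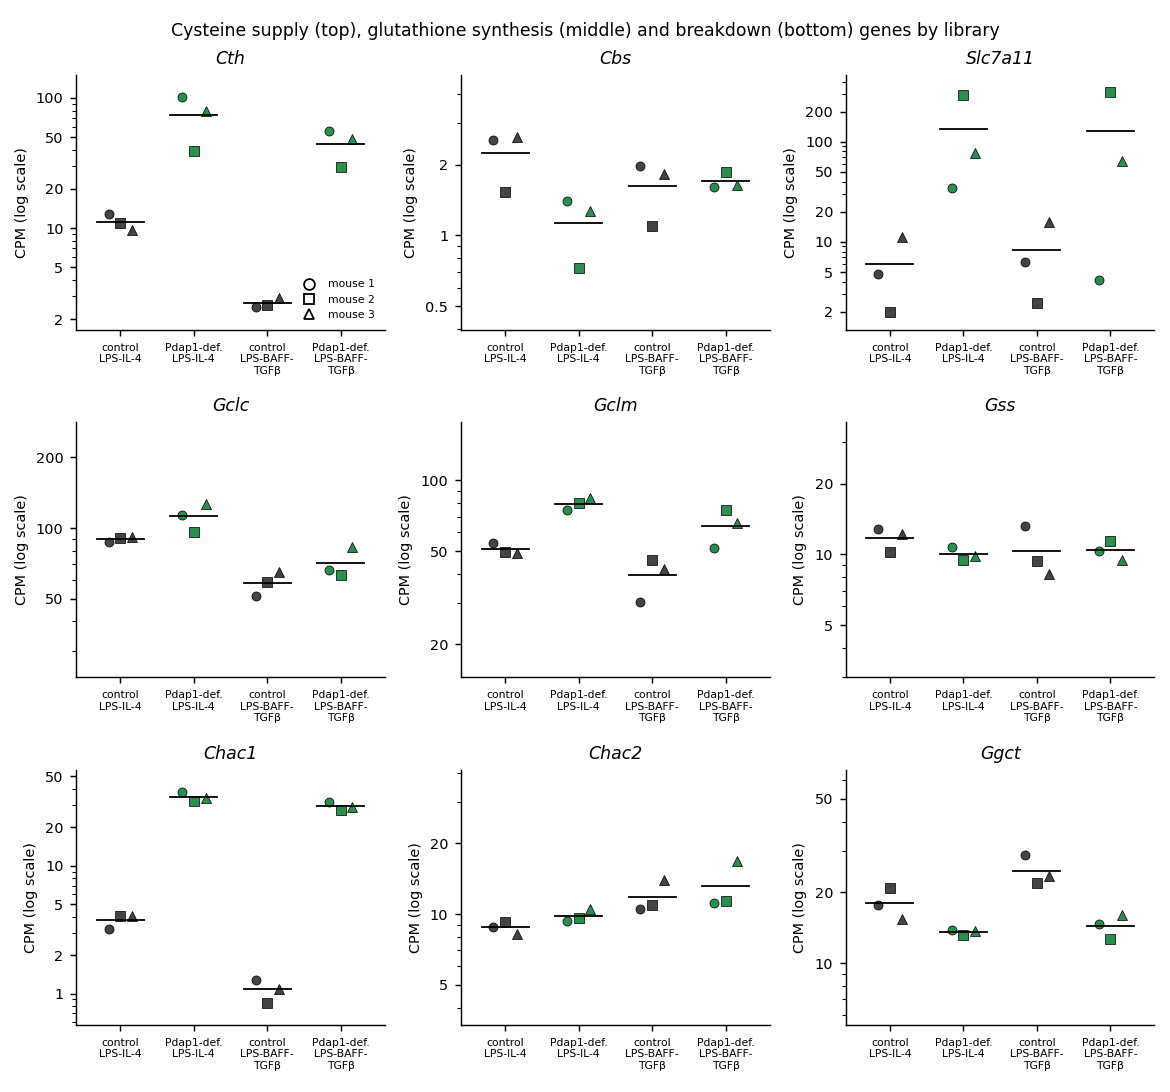
Level of each of the 9 genes in the 12 libraries, in CPM on a log axis with a separate range for each gene; each point is the culture of 1 mouse (grey for control, green for Pdap1-deficient), and the horizontal lines mark group means. *Chac1* and *Cth* separate the genotypes under both stimulations, while the genotypes overlap for *Gss* under both.

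The comparison of genotypes asked how the loss of Pdap1 changed the genes within each stimulation. With LPS-IL-4, *Cth*, *Gclm* and *Chac1* were called higher in the deficient mice by edgeR, 1 gene each of cysteine supply, synthesis and breakdown. DESeq2 called 4 there, adding *Slc7a11* of cysteine supply (log2 fold change 4.45, adjusted p = 8.62e-04). Without control mouse 1, 2 or 3, or without deficient mouse 3, edgeR called *Chac1* alone. With LPS-BAFF-TGFβ, *Cth* and *Chac1* rose, and none of the 9 genes was called lower in either comparison. The test was the quasi-likelihood F test of edgeR, with p-values adjusted by Benjamini-Hochberg over all genes and a threshold of 0.05. With LPS-IL-4, 3 of the 9 genes passed, all higher, where 4.92% of 15074 genes tested passed and 2.79% were higher. With LPS-BAFF-TGFβ, 2 of 9 passed, both higher, where 0.462% of 14079 genes passed and 0.455% were higher. All 9 genes were tested in every comparison. The deleted gene *Pdap1* itself passed with LPS-IL-4 (log2 fold change −1.82, SE 0.11, adjusted p = 3.52e-05, edgeR). With LPS-BAFF-TGFβ it did not (−2.33, SE 0.36, adjusted p = 0.0929, edgeR), so failing the test there does not show the lack of a change.

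Counting genes whose libraries did not overlap between the genotypes, 6 of 9 lay higher and 2 lower with LPS-IL-4, against a background of 15.5% of all genes higher and 16.1% lower (31.7% in all). With LPS-BAFF-TGFβ 3 lay higher and 1 lower, against 9.55% and 9.08% (18.6% in all). The median log2 fold change of the 9 genes was 0.31 and 0.29 in the LPS-IL-4 and the LPS-BAFF-TGFβ comparison, beside 0.021 and 0.0066 over all genes tested. The 9 genes were chosen with earlier results of these data known, so the counts and medians beside those of all genes are descriptions. Both stimulations used the same 6 mice, so they are not independent of each other. In these bulk cultures, a change in the share of a cell type and a change in RNA per cell cannot be told apart.

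Marker genes of plasmablasts, the antibody-secreting cells that activated B cells become, were compared between the genotypes as well. The 6 plasmablast markers summed to 622 to 674 CPM in the LPS-IL-4 controls and 747 to 892 in the deficient mice, without overlap. In the LPS-BAFF-TGFβ cultures the sums were 449 to 527 against 475 to 527, where the groups overlapped. Most of the LPS-IL-4 sum was *Xbp1* and *Irf4*, at mean levels of 313 and 297 CPM in the controls. They stood at 342 and 367 in the deficient mice, and edgeR called neither. By flow cytometry of separate cultures, given more LPS and kept longer, the paper reported no significant difference in plasmablast share. It also saw no apparent change of the plasmablast signature in its RNA-seq data. *Prdm1*, the gene of the regulator Blimp-1 that drives plasma cell differentiation, rose with LPS-IL-4 from 17.4 ± 3.0 to 62.3 ± 10.6 CPM (log2 fold change 1.82, SE 0.16, adjusted p = 3.23e-04, edgeR). It was the 1 marker called of 5 tested, by edgeR as by DESeq2, and *Sdc1*, a surface marker of plasma cells, named here after its values were seen, stood at −0.76 (adjusted p = 0.0858, edgeR). With LPS-BAFF-TGFβ both tools called 0 of 5, with none at an unadjusted p under 0.05 in edgeR. *Tnfrsf17* was at 0 to 0.243 CPM in all libraries. The sum of 6 erythroid markers, most of it *Alas2*, was 8.18 to 11.0 CPM in the controls and 9.73 to 23.7 in the deficient mice with LPS-IL-4, and 9.79 to 10.7 against 11.3 to 20.2 with LPS-BAFF-TGFβ, with the 5 other markers at 0 in some libraries. The part of either marker group in the changes of *Cth*, *Gclm* and *Chac1* was not tested.

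**Figure D2:**
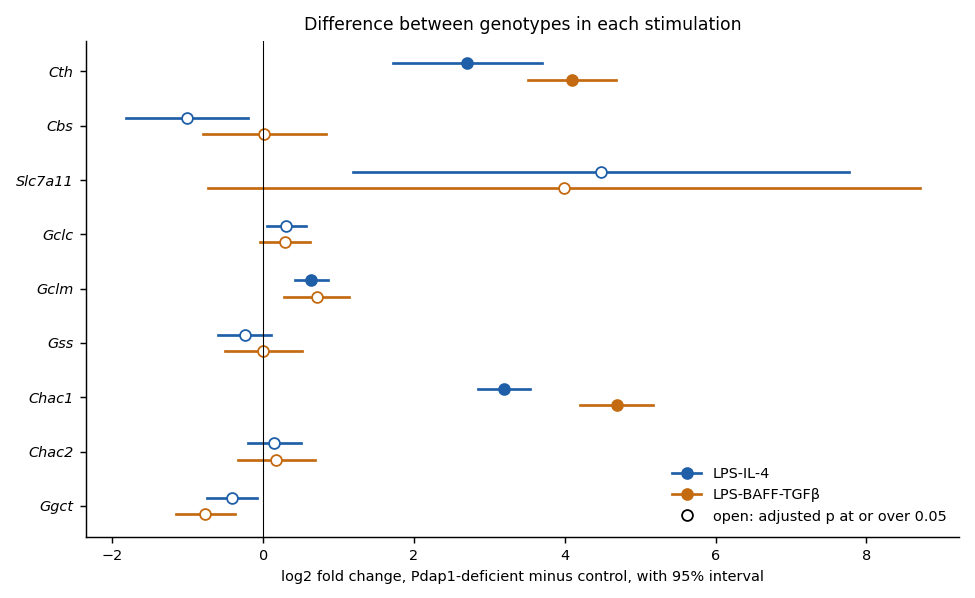
Log2 fold change of each gene, Pdap1-deficient minus control, with its 95% confidence interval from edgeR for both stimulations, in the order supply, synthesis and breakdown, with filled points for genes that passed the test. The intervals of *Chac1* and *Cth* lie far above 0 with either stimulation, and that of *Slc7a11* is the widest.

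Of the genes that supply cysteine, *Cth* encodes cystathionine γ-lyase, which splits cystathionine and releases cysteine (GRCm38 3:157894248-157925077, minus strand). With LPS-IL-4 its level was 12.8, 11.0 and 9.64 CPM in control mice 1 to 3 and 100.9, 39.4 and 79.7 CPM in deficient mice 1 to 3. With LPS-BAFF-TGFβ it was 2.48, 2.55 and 2.92 CPM in the controls and 55.3, 29.3 and 48.5 CPM in the deficient mice. Every deficient culture lay above every control culture of its stimulation, and mouse 2 was the lowest of the deficient mice in both.

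*Cth* was 6.54-fold higher with LPS-IL-4 (log2 fold change 2.71, SE 0.40, adjusted p = 0.0279, edgeR) and 17.03-fold higher with LPS-BAFF-TGFβ (4.09, SE 0.26, adjusted p = 1.10e-04, edgeR). The adjusted p of the first was 0.126, 0.157 and 0.146 in edgeR when control mouse 1, 2 or 3 was left out, and 0.0959 without deficient mouse 3, at log2 fold changes of 2.6 to 2.81. Without deficient mouse 2, the culture with the most myeloid marker RNA, *Cth* was higher by 3.02 on the log2 scale (adjusted p = 2.42e-08, edgeR).

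*Cbs* encodes cystathionine β-synthase, which joins homocysteine and serine in the step before *Cth* (17:31608894-31637238, minus strand). It was near the limit of these libraries, at 9 to 31 counts in all but the deepest, which held 124. With LPS-IL-4 it stood at 2.55, 1.53 and 2.63 CPM in the controls and 1.4, 0.73 and 1.27 in the deficient mice. With LPS-BAFF-TGFβ it stood at 1.97, 1.09 and 1.83 against 1.61, 1.86 and 1.64. The first pair of groups did not overlap, with the deficient mice lower, and the second pair overlapped. Neither difference passed the test, at a log2 fold change of −1.02 (SE 0.37, adjusted p = 0.128, edgeR) and of 0.016 (95% interval −0.80 to 0.83, adjusted p = 0.990, edgeR).

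The balance of the transsulfuration pair can be read from their levels. Per kb, *Cth* made up 93.0% ± 2.15 of the summed *Cth* and *Cbs* level in the controls with LPS-IL-4 and 99.4% ± 0.09 in the deficient mice. With LPS-BAFF-TGFβ it made up 81.5% ± 4.55 and 98.5% ± 0.67. These shares did not overlap between the genotypes in either stimulation, and they come from the same counts as the tests above. Their size depends on the exonic lengths used, 2791 bases for *Cth* and 7485 for *Cbs*.

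*Slc7a11* encodes xCT, the light chain of the cystine/glutamate antiporter (3:49892526-50443614, minus strand). With LPS-IL-4 it stood at 4.78, 1.98 and 11.1 CPM in the controls and at 34.7, 294 and 77.0 in the deficient mice. With LPS-BAFF-TGFβ it stood at 6.29, 2.43 and 16.0 in the controls and at 4.19, 313 and 64.7 in the deficient mice. The genotypes did not overlap with LPS-IL-4, whereas deficient mouse 1 lay among the controls with LPS-BAFF-TGFβ. The spread between mice was the largest of the 9 genes in all 4 groups, with 5.62 to 74.7 times between the highest and the lowest mouse of a group.

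The log2 fold change of *Slc7a11* was 4.48 (SE 1.21, adjusted p = 0.128, edgeR) in the LPS-IL-4 cultures and 3.99 (SE 1.74, adjusted p = 0.520, edgeR) in the others, and neither passed. DESeq2 called the first (4.45, adjusted p = 8.62e-04) and not the second (adjusted p = 0.223), and over all alternatives the adjusted p was up to 0.346 and 0.791. Without deficient mouse 2 the 2 values were 3.22 (adjusted p = 0.140, edgeR) and 2.09 (adjusted p = 0.791, edgeR).

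Myeloid marker RNA was high in deficient mice 2 and 3, where *Slc7a11* was highest too. The summed level of 8 myeloid markers (*Lyz2*, *Itgam*, *Csf1r*, *Adgre1*, *Mpo*, *S100a8*, *S100a9* and *Cd14*) was 8.07, 5.22 and 13.7 CPM in the controls with LPS-IL-4 and 6.77, 317 and 33.7 in the deficient mice. With LPS-BAFF-TGFβ it was 21.6, 16.4 and 24.8 against 11.8, 549.8 and 79.0. Deficient mice 2 and 3 stood above all controls in both cultures, and deficient mouse 1 did not. *Lyz2*, the lysozyme gene of macrophages and neutrophils, stood at 0.0778, 94.0 and 9.62 CPM in the deficient cultures with LPS-IL-4 and at 0.645, 278 and 40.9 with LPS-BAFF-TGFβ. Of the 8 markers, 3 were tested in each genotype comparison and 0 were called by edgeR or by DESeq2, with none at an unadjusted p under 0.05 in edgeR and median log2 fold changes of 3.54 and 3.47.

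Over the 12 libraries, Pearson's r between the log2 level of *Slc7a11* and the log2 myeloid sum was 0.85. It was −0.43 to 0.47 for the other 8 genes, with *Cth* at 0.22, *Chac1* at 0.41 and *Gclm* at 0.47. The points share 6 mice and 4 groups, so these are descriptions. In the LPS-IL-4 culture of deficient mouse 1 *Slc7a11* stood at 34.7 CPM, above all 3 controls, at a myeloid sum within the control range. There *Acod1*, a macrophage gene named after its values were seen, stood at 14.4 CPM, against 2.16 to 7.53 in the controls. In the LPS-BAFF-TGFβ culture of that mouse *Slc7a11* stood at 4.19 CPM, *Acod1* at 0.323 and the myeloid sum at 11.8. How much of the *Slc7a11* in deficient mice 2 and 3 came from myeloid cells was not tested.

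**Figure D3:**
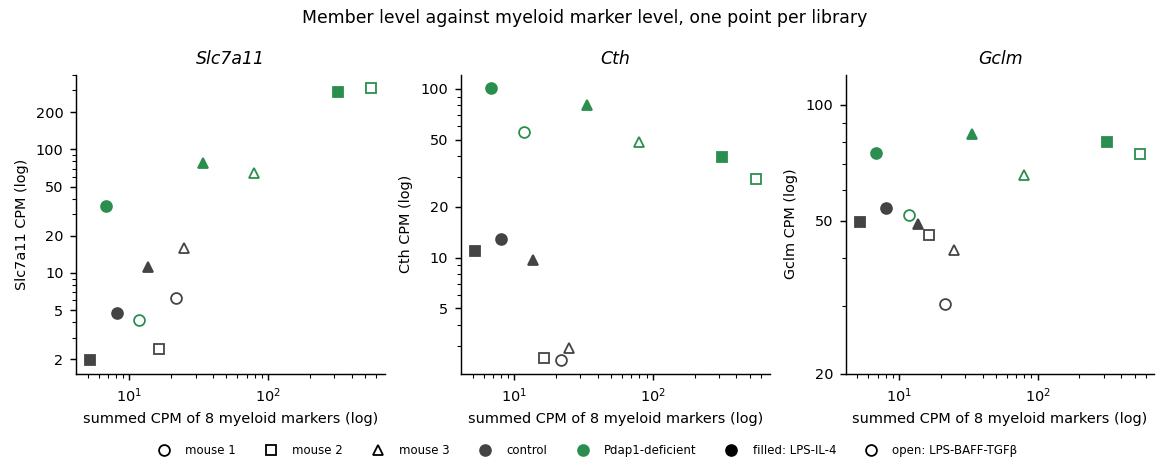
Level of *Slc7a11*, *Cth* and *Gclm* (CPM, log axis) against the summed CPM of 8 myeloid markers (log axis) in the 12 libraries, by mouse, genotype and stimulation. *Slc7a11* is highest in the 2 cultures of deficient mouse 2, where the myeloid sum is also highest. *Cth* and *Gclm* lie above the controls of their stimulation in deficient mice at low and high myeloid sums. Among the deficient LPS-BAFF-TGFβ cultures, *Gclm* is higher where the myeloid sum is higher.

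Of the genes that make glutathione, *Gclm* rose in the deficient mice with LPS-IL-4, and *Gclc* and *Gss* did not pass the test. *Gclc*, the catalytic subunit of the ligase that sets the rate of synthesis (9:77754535-77794485, plus strand), stood at 87.6, 90.7 and 91.6 CPM in the controls with LPS-IL-4 and at 113, 96.2 and 127 in the deficient mice. With LPS-BAFF-TGFβ it stood at 51.5, 58.9 and 65.3 against 66.3, 63.0 and 83.2. The genotypes overlapped in the second comparison and not in the first. The log2 fold changes were 0.31 (SE 0.12, adjusted p = 0.152, edgeR) and 0.29 (SE 0.15, adjusted p = 0.523, edgeR). Without deficient mouse 2 the first was 0.42 and passed (adjusted p = 0.00409, edgeR), and the other alternatives gave up to 0.398.

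*Gclm*, the modifier subunit that makes the ligase less prone to inhibition by glutathione (3:122245557-122270732, plus strand), stood at 54.0, 49.5 and 49.1 CPM in the controls with LPS-IL-4 and at 74.8, 80.1 and 84.3 in the deficient mice. With LPS-BAFF-TGFβ it stood at 30.4, 45.9 and 42.0 against 51.6, 74.7 and 65.5. Neither pair of groups overlapped, and deficient mouse 1 stood above all controls in both. The first difference, 1.56-fold (log2 fold change 0.64, SE 0.10, adjusted p = 0.00875, edgeR), passed. The second, 0.71 (SE 0.19, adjusted p = 0.261, edgeR), did not. Without control mouse 1, 2 or 3 or deficient mouse 3 the LPS-IL-4 value was 0.58 to 0.67 with adjusted p = 0.0556, 0.0878, 0.0792 and 0.0534 in edgeR. Exons of *Gclm* share 296 bases with *Gm17494* on the opposite strand and 244 with the pseudogene *Gm6061*, and the strand setting of the counting was not given in the sources used here, so a part of the reads is uncertain.

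*Gss*, glutathione synthetase, adds glycine in the last step (2:155563181-155592810, minus strand). It stood at 12.8, 10.3 and 12.3 CPM against 10.7, 9.49 and 9.83 with LPS-IL-4 and at 13.2, 9.37 and 8.28 against 10.3, 11.4 and 9.50 with LPS-BAFF-TGFβ, controls first. The genotypes overlapped in both. The log2 fold changes were −0.24 (95% interval −0.60 to 0.11, adjusted p = 0.377, edgeR) and 0.0018 (−0.51 to 0.51, adjusted p = 0.998, edgeR). Its exons share 395 bases with *Acss2* on the opposite strand. The ratio of *Gclc* to *Gclm* per kb was 2.96 ± 0.22 in the controls and 2.35 ± 0.30 in the deficient mice with LPS-IL-4, with no overlap, and 2.52 ± 0.35 and 1.89 ± 0.42 with LPS-BAFF-TGFβ, where the highest deficient mouse, at 2.15, passed the lowest control, at 2.14.

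Of the genes of glutathione breakdown, *Chac1* rose under both stimulations, and *Chac2* and *Ggct* did not pass the test. *Chac1* encodes a cytosolic γ-glutamylcyclotransferase that cuts glutathione into 5-oxoproline and cysteinylglycine (2:119351229-119354381, plus strand). It stood at 3.21, 4.05 and 4.03 CPM in the controls with LPS-IL-4 and at 37.7, 32.2 and 33.9 in the deficient mice. With LPS-BAFF-TGFβ it stood at 1.29, 0.852 and 1.10 against 31.6, 27.5 and 28.6. The lowest deficient culture lay far above the highest control culture in both, and the deficient mice varied little, with coefficients of variation of 8.21% and 7.34%.

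*Chac1* was 9.13-fold higher with LPS-IL-4 (log2 fold change 3.19, SE 0.16, adjusted p = 1.10e-05, edgeR), the smallest p of all genes tested there, and 25.8-fold higher with LPS-BAFF-TGFβ (4.69, SE 0.22, adjusted p = 1.71e-05, edgeR), the second smallest. The control level behind the second value rested on 7 and 9 counts in mice 2 and 3 and 81 in the deep library of mouse 1. It was called in every alternative in which it was tested.

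*Chac2* encodes the paralog that carries out the same reaction, at a lower rate (11:30976707-30986350, minus strand). It stood at 8.81, 9.26 and 8.24 CPM against 9.34, 9.61 and 10.5 with LPS-IL-4 and at 10.5, 10.9 and 14.0 against 11.1, 11.4 and 16.9 with LPS-BAFF-TGFβ, controls first. The deficient mice lay above the controls by a narrow margin in the first and overlapped them in the second. The log2 fold changes were 0.15 (95% interval −0.20 to 0.50, adjusted p = 0.604, edgeR) and 0.17 (−0.33 to 0.68, adjusted p = 0.782, edgeR), so changes of the size seen in *Chac1* lie outside both intervals.

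*Ggct* encodes the γ-glutamylcyclotransferase that acts on γ-glutamyl amino acids rather than on glutathione itself (6:54982580-54992950, minus strand). It stood at 17.7, 20.8 and 15.3 CPM in the controls and 13.8, 13.1 and 13.6 in the deficient mice with LPS-IL-4, and at 28.8, 21.9 and 23.5 against 14.7, 12.6 and 16.1 with LPS-BAFF-TGFβ. The deficient mice lay below the controls in both without overlap. The log2 fold changes were −0.42 (SE 0.15, adjusted p = 0.126, edgeR) and −0.77 (SE 0.17, adjusted p = 0.149, edgeR). The second passed when all 12 libraries shared a fit (−0.78, adjusted p = 0.0359, edgeR), and over all alternatives its adjusted p ran from 0.0170 to 0.525.

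Per kb, *Chac1* made up 20.4% ± 2.54 of the summed level of the 3 breakdown genes in the controls with LPS-IL-4 and 69.6% ± 2.24 in the deficient mice. With LPS-BAFF-TGFβ it made up 5.14% ± 1.01 and 60.4% ± 5.75. The size of these shares depends on the exonic lengths used, 1637, 1315 and 7745 bases for *Chac1*, *Chac2* and *Ggct*. The ratio of *Chac1* to *Chac2* was 0.35 ± 0.05 and 2.85 ± 0.35 with LPS-IL-4 and 0.0747 ± 0.0208 and 1.86 ± 0.47 with LPS-BAFF-TGFβ. In all 6 control cultures *Chac2* was the more abundant of the pair, and in all 6 deficient cultures *Chac1* was. RNA levels do not give the activity of the enzymes.

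**Figure D4:**
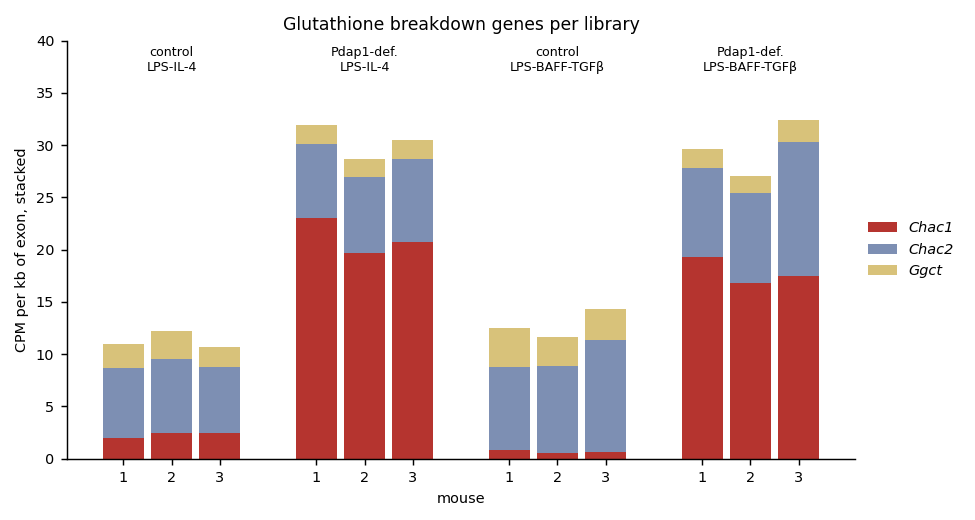
Levels of *Chac1*, *Chac2* and *Ggct* in CPM per kb of exon, stacked in a bar for each of the 12 libraries, by group and mouse. *Chac1* makes up 4.46% to 23.0% of the bar in the control cultures and 54.0% to 72.2% in the deficient cultures.

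The comparison of stimulations within a genotype asked whether the genes depended on the cytokines. In control mice *Cth*, *Gclc* and *Chac1* were lower in the LPS-BAFF-TGFβ cultures and no gene was called higher by edgeR. This made 3 of 9 genes, against 19.3% of 14882 genes called and 9.33% called lower. In deficient mice *Gclc* alone passed, 1 of 9 and lower, against 11.5% of 14617 genes called and 5.89% called lower. The controls and deficient mice were each compared with themselves, 3 cultures against 3 from the same animals. Plasmablast markers differed too, with 4 of 5 tested called lower and 1 higher in the controls and 2 called lower in the deficient mice by edgeR, and their part was not tested.

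In the controls, the log2 fold change of *Cth* was −2.09 (SE 0.20, adjusted p = 1.88e-04, edgeR), that of *Chac1* −1.73 (SE 0.26, adjusted p = 0.00253, edgeR) and that of *Gclc* −0.62 (SE 0.11, adjusted p = 0.00479, edgeR). Within the same mouse, the difference was −2.31 to −1.68 for *Cth*, −2.08 to −1.23 for *Chac1* and −0.76 to −0.49 for *Gclc*, lower in 3 of 3 mice. *Ggct* (0.47, adjusted p = 0.0806, edgeR) and *Chac2* (0.42, adjusted p = 0.129, edgeR) were higher in each mouse and did not pass. *Gclm* was lower in each mouse, at −0.37 (adjusted p = 0.149, edgeR). *Cbs* (−0.40), *Gss* (−0.17) and *Slc7a11* (0.45) had adjusted p-values of 0.453, 0.612 and 0.771 in edgeR. Within the mice *Slc7a11* differed by 0.39, 0.28 and 0.51 and *Cbs* by −0.35, −0.43 and −0.49, each in 1 direction in 3 of 3. With the mouse as a block these were 0.42 (SE 0.21, adjusted p = 0.253, edgeR) and −0.45 (SE 0.29, adjusted p = 0.391, edgeR), and neither passed.

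In the deficient mice, *Gclc* stood at −0.66 (SE 0.14, adjusted p = 0.0154, edgeR), and within the same mouse the difference was −0.77 to −0.61. Its adjusted p was 0.0513 without LPS-IL-4 mouse 1, 0.0816 without LPS-IL-4 mouse 3, 0.120 without LPS-BAFF-TGFβ mouse 1 and 0.0567 without LPS-BAFF-TGFβ mouse 2 in edgeR. *Cth* stood at −0.71 (SE 0.42, adjusted p = 0.398, edgeR), *Chac1* at −0.24 (SE 0.12, adjusted p = 0.278, edgeR) and *Gclm* at −0.32 (SE 0.14, adjusted p = 0.209, edgeR). With the mouse as a block, since the cultures are paired by animal, 3 genes passed in edgeR, all lower, where 26.4% of all genes passed and 13.5% were lower: *Gclc* (−0.66, adjusted p = 6.59e-06), *Cth* (−0.69, adjusted p = 3.67e-05) and *Gclm* (−0.33, adjusted p = 0.0131). Within the mice *Cth* differed by −0.87, −0.42 and −0.71. Over all alternatives, the adjusted p of *Cth* reached 0.665 and that of *Gclm* 0.622.

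*Chac1* differed by −0.25, −0.23 and −0.25 within the 3 deficient mice and did not pass with the block (adjusted p = 0.0827, edgeR). *Slc7a11* differed by −3.01, 0.091 and −0.25, without a common direction. *Chac2* was higher with LPS-BAFF-TGFβ in each deficient mouse, at 0.43 (adjusted p = 0.238, edgeR), and *Cbs* at 0.60 (adjusted p = 0.418, edgeR).

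**Figure D5:**
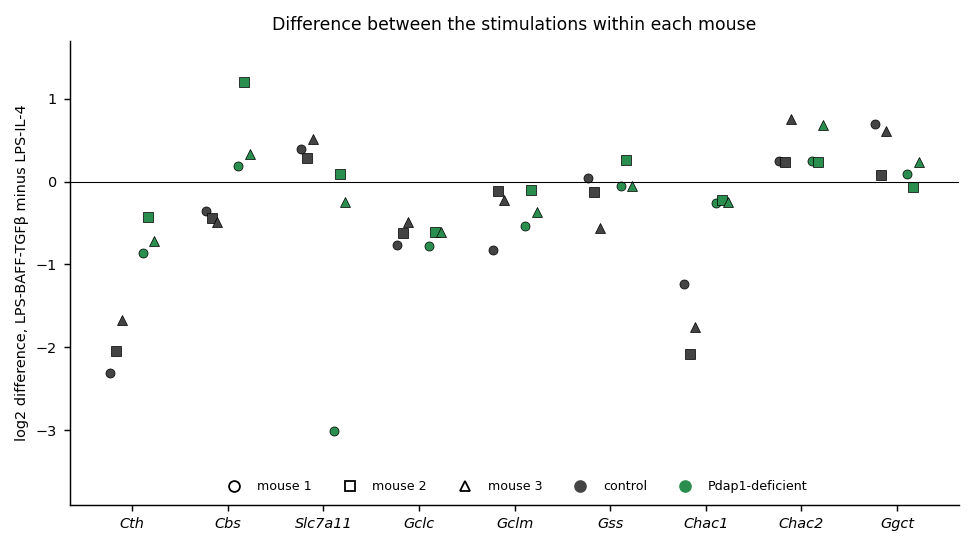
Difference in log2 level between the LPS-BAFF-TGFβ and the LPS-IL-4 culture of the same mouse for each of the 9 genes, 3 control and 3 deficient mice. *Cth* and *Chac1* lie between −2.31 and −1.23 in the controls and between −0.87 and −0.23 in the deficient mice.

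Whether the genotype difference itself differed between the stimulations was tested as an interaction over all 12 libraries. The test took the 2 cultures of a mouse as independent. None of the 9 genes passed in edgeR, nor did any of the 15794 genes tested (0%), of which 755 had an unadjusted p under 0.05, *Chac1* and *Cth* among them. *Chac1* had the smallest p of all genes. Its genotype difference was larger by 1.46 on the log2 scale with LPS-BAFF-TGFβ (95% interval 0.96 to 1.97, adjusted p = 0.217, edgeR). DESeq2 called 6 genes, among them *Chac1* (1.45, adjusted p = 0.0263), and the other alternatives gave *Chac1* an adjusted p of up to 0.719. For *Cth* the difference was 1.38 (95% interval 0.33 to 2.42, adjusted p = 0.983, edgeR), and for *Cbs*, which was lower with LPS-BAFF-TGFβ in each control and higher in each deficient mouse, it was 1.01 (−0.089 to 2.12, adjusted p = 0.983, edgeR). *Chac1* stood at 34.6 ± 2.84 and 29.2 ± 2.14 CPM in the deficient mice (LPS-IL-4 first). In the controls it stood at 3.76 ± 0.48 and 1.08 ± 0.22 CPM. On the log2 scale, though not in CPM, the deficient levels were the closer pair.

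Of the genes around these pathways, a pair of transport genes rose under both stimulations. Of 8 cystine and cysteine transport genes, 5 were tested in the LPS-IL-4 cultures and 4 in the others, and the same 2 were called higher by edgeR in both. Of all genes tested, 2.79% and 0.455% were called higher. *Slc3a2*, the heavy chain that xCT and other amino acid exchangers need, stood at 140 ± 9.22 CPM in the controls and 239 ± 12.2 in the deficient mice with LPS-IL-4 (log2 fold change 0.76, SE 0.10, adjusted p = 0.00363, edgeR), and at 99.6 ± 3.37 and 179 ± 11.2 with LPS-BAFF-TGFβ (0.85, SE 0.10, adjusted p = 0.00805, edgeR). *Slc1a4*, a carrier of small neutral amino acids, stood at 18.9 ± 1.17 and 57.5 ± 11.7 CPM (1.6, SE 0.16, adjusted p = 8.47e-04, edgeR) and at 12.6 ± 1.59 and 67.1 ± 6.41 (2.41, SE 0.14, adjusted p = 7.80e-05, edgeR). The medians of the tested genes were 0.20 and 0.70, beside 0.021 and 0.0066 over all genes.

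In the other 6 lists, edgeR called 0 of 52 genes tested with LPS-BAFF-TGFβ, of which 11 had an unadjusted p under 0.05, and DESeq2 called 4, where edgeR called 0.462% of all genes. With LPS-IL-4, edgeR called 10 of 51, where it called 4.92% of all genes. There 2 of 11 tested methionine cycle genes fell in edgeR's test, *Mri1* (−0.59, adjusted p = 0.0356) of the methionine salvage route and *Ahcy* (−0.58, adjusted p = 0.0463), which releases homocysteine. Of 8 tested genes of cysteine catabolism and sulfide oxidation, edgeR called 0, with 1 at an unadjusted p under 0.05, and DESeq2 called 1. In the γ-glutamyl cycle outside the 9 genes, 1 of 3 tested fell, *Lap3*, an aminopeptidase that splits cysteinylglycine (−0.68, adjusted p = 0.0292, edgeR).

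Of 10 tested genes of glutathione reduction and peroxidases, *Gsr*, the reductase that regenerates glutathione from its disulfide, stood at 37.2 ± 0.90 CPM in the controls and 76.0 ± 11.5 in the deficient mice with LPS-IL-4 and rose (1.02, SE 0.12, adjusted p = 0.00147, edgeR). *Prdx6* (−0.54, adjusted p = 0.0263, edgeR) and *Glrx5* (−0.55, adjusted p = 0.0409, edgeR) fell. Of 12 tested conjugation and glyoxalase genes, *Mgst2* rose (1.05, adjusted p = 0.0208, edgeR) and *Gsto1* (−0.66, adjusted p = 0.0239, edgeR) and *Gstt2* (−0.60, adjusted p = 0.0391, edgeR) fell. Of 7 tested glutathione transport genes, *Slc25a40*, a paralog of the mitochondrial glutathione carrier *Slc25a39*, rose (0.67, adjusted p = 0.0172, edgeR). With LPS-BAFF-TGFβ edgeR called none of these genes, though all kept their direction. They ran from −0.91 for *Gstt2* (adjusted p = 0.113, edgeR) to 0.86 for *Gsr* (adjusted p = 0.149, edgeR), with *Prdx6* at −0.054. There *Gsr* stood at 29.3 ± 2.83 CPM in the controls and 52.8 ± 14.1 in the deficient mice. The list medians ranged from −0.19 to 0.032 with LPS-IL-4 outside cystine and cysteine transport, beside 0.021 over all genes.

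Genes with log2 levels most alike to those of *Chac1*, *Cth* and *Slc7a11* were sought among all genes that passed the filter. Over 12 libraries and 15794 genes, Pearson's r with *Chac1* was highest for *Trib3* (0.992), *Cars* (0.989), *Slc6a9* (0.986), *Asns* (0.984) and *Bcat1* (0.982), and with *Cth* for *Bcat1* (0.989), *Aars* (0.984), *Aldh18a1* (0.984), *Slc7a5* (0.984) and *Yars* (0.982). *Chac1* and *Cth* correlated at 0.97 with each other. With *Slc7a11* it was highest for *Spic* (0.959), a transcription factor of red pulp macrophages, *Gm37498* (0.957), which lies within *Slc7a11* on the same strand, *Srxn1* (0.957), *Gm15154* (0.953) and *Acod1* (0.945), an enzyme of activated macrophages. All points share the same 6 mice and 4 groups, so these are descriptions of these libraries. The roles of *Spic* and *Acod1* were looked at after the values were seen. *Spic* was low, at 0.18 to 4.44 CPM over the 12 libraries. Whether the B cells themselves expressed *Spic* or *Acod1* was not tested.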

How the data were processed

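RNA was sequenced from 12 cultures of splenic B cells. Per the paper's Methods and the submitters' processing notes, the authors trimmed reads with Trim Galore 0.6.1, aligned them to GRCm38 with STAR 2.6 and counted them per Ensembl gene with HTSeq 0.9.1 in the pigx-rnaseq pipeline. The annotation release and the strand setting are not given in the sources used here, and the labels and the paper name different library kits. The authors deposited raw counts, which were used, and the same counts divided by size factors, which were not. Genotype and class switch came from the labels, mouse numbers from the series description, while the paper's Methods gave the doses and the time.

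Gene names came from GENCODE M21, which named all 55536 identifiers. edgeR 4.0.16 in R 4.3.3 was used with filterByExpr, TMM factors and the robust quasi-likelihood F test, with Benjamini-Hochberg adjustment over all genes tested and a threshold of 0.05. Each comparison used only its own libraries. The SE of a log2 fold change is its size divided by the square root of F. Levels are CPM with TMM factors over all 12 libraries, and levels per kb divide them by the union of exons. Log2 levels used a prior count of 2. Exon overlap and likeness between genes were computed by script, and RefSeq promoters were searched on both strands. The scripts were tested on simulated data. DESeq2 1.42.0 was an alternative, as were its size factors, other filters on low counts, each library left out, a replicate block, a fit of all 12 libraries and thinning to 4579793 counts. No 2 libraries of a group agreed within sampling noise. Replicates are mice, so p-values measure the spread between 3 mice a group. Between stimulations and in the interaction, the main test took the 2 cultures of a mouse as independent.

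The 9 genes and all gene lists were chosen with earlier results of these data known. All 9 were named, with *Pdap1*, of each wider list the genes called by genotype (at most 4), and the 5 genes most alike to *Cth*, *Chac1* and *Slc7a11*. A further B cell marker of the lists is not reported here. The promoter motifs were chosen after the values were seen. The 2 cultures of a mouse pair by the series description. Their deviations from the group means correlated at 0.58, 0.62 and 0.29 in deficient mice and at −0.18, 0.34 and −0.02 in controls.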

Additional observations from a re-analysis of the deposited data

How the results depend on the processing

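Over all comparisons and alternatives, 574 of 636 values of the 9 genes kept their direction and their side of the threshold, 13 lost the call, 12 gained it and 37 turned. The number of genes called by genotype with LPS-IL-4, 3, was 1 to 4 with a library left out, and 2 to 4 otherwise. *Cth* had adjusted p = 0.0523 without a filter in edgeR. With LPS-BAFF-TGFβ, 2 was 2 with any library left out, 4 without a filter on low counts (adding *Gclm*, 0.65, and *Ggct*, −0.83) and 1 with at least 10 counts in every library, where *Chac1* was not tested. In control mice, the 3 called by stimulation were 3 to 4 with a library left out, *Chac2* being added without LPS-BAFF-TGFβ mouse 1 (0.52, adjusted p = 0.0285, edgeR, against up to 0.316 otherwise). They were 2 to 4 in the other alternatives, of which 1 called *Ggct* higher. In deficient mice, 1 was 0 to 1 with a library left out, 3 with the mouse as replicate block and 3 with both cultures of mouse 2 left out, an alternative added after the data were seen. The interaction gave 0 with any library left out and 1 in DESeq2.

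The values that turned were all of genes that did not pass. With LPS-BAFF-TGFβ by genotype, *Gss* was −0.018 in DESeq2, −0.0040 with its size factors, −0.068 without a filter, −0.0018 with at least 10 counts, −0.011 in the fit of 12 libraries and −0.13 to 0.23 with a library left out. *Cbs* was −0.039 without a filter and −0.16 to 0.21, and *Chac2* −0.059 to 0.30, with a library left out. By stimulation with a library left out, in fits that leave the mice unpaired, *Slc7a11* was −0.36 to 1.25 in controls and −1.95 to 1.18 in deficient mice, and *Gss* −0.016 to 0.12 in deficient mice and −0.058 without mouse 2. In the interaction, *Chac2* was −0.0066 with at least 10 counts, −0.013 with the block, −0.047 when thinned and −0.22 to 0.16 with a library left out, where *Slc7a11* was −2.37 to 0.76, *Gclc* −0.17 to 0.062 and *Gclm* −0.11 to 0.19 (−0.068 without mouse 2). The cause was not tested.

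Over all genes, 741 calls by genotype with LPS-IL-4 were 69 to 1759 with a library left out and 588 to 1694 otherwise. The 65 with LPS-BAFF-TGFβ were 19 to 116 and 48 to 257. The 2874 by stimulation in controls were 1608 to 4858 and 1989 to 3038, the 1675 in deficient mice 908 to 2235 and 1479 to 3854, and the 0 of the interaction 0 to 1 and 0 to 6. Between genotypes replicate numbers only name mice (r −0.21 to 0.10), and the block by number left 3 and 2 genes called. The block by mouse changed no other call than those given. Counts of 9 to 31 limit *Cbs*, and 3 mice a group limit *Slc7a11*, whose biological coefficient of variation is the widest of the 9 genes.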

Other observations

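Stimulation also changed genes around the 9. In control mice, LPS-BAFF-TGFβ cultures had more *Cdo1*, the dioxygenase that commits cysteine to oxidation (log2 fold change 2.79, SE 0.26, adjusted p = 1.87e-04, edgeR), and more *Suox*, sulfite oxidase (1.83, SE 0.14, adjusted p = 6.81e-05, edgeR). *Got1*, which can transaminate cysteine sulfinate, was lower (−0.61, adjusted p = 0.00284, edgeR). These were the 3 called of 9 tested cysteine catabolism genes, where 19.3% of all genes were called. *Cdo1* stood at 0.58 ± 0.05 CPM in the LPS-IL-4 and 4.02 ± 0.32 in the LPS-BAFF-TGFβ cultures of the controls. In the deficient mice it stood at 0.71 ± 0.43 and 1.63 ± 0.61 and was left out of the test by the filter on low counts. There *Suox* was higher by 1.63 (adjusted p = 8.73e-04, edgeR) and *Got1* stood at −0.57 (adjusted p = 0.0175, edgeR). In controls *Oplah*, the 5-oxoprolinase that returns the product of *Chac1* and *Ggct* to glutamate, was higher (1.79, SE 0.30, adjusted p = 0.00426, edgeR). Of 14 tested conjugation genes, against the same 19.3%, 1 was higher in controls, *Mgst1* (1.51, adjusted p = 0.0142, edgeR), and 4 were lower, led by *Gstm1* (−1.76, SE 0.18, adjusted p = 2.79e-04, edgeR). *Slc25a40* was higher with LPS-BAFF-TGFβ in controls (1.07, adjusted p = 0.0125, edgeR) and in deficient mice (0.61, adjusted p = 0.00892, edgeR). These genes were chosen after their values were seen, apart from *Slc25a40*, and none of them passed the interaction test in edgeR or was among the 9 genes.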
